A study of Mus musculus with 6 samples.

Results

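The 10 genes described here encode proteins that break down extracellular nucleotides or take up and use the adenosine that results. They were chosen by symbol (Entpd1, Entpd2, Entpd5, Nt5e, Enpp1, Enpp3, Ada, Adk, Slc29a1 and Alpl), with earlier results of these data known. All 10 were found among the 33696 genes of the count tables. Single kidney cells were sequenced from 3 sham mice and 3 DOCA-salt mice, with 1 library per mouse. All were male C57BL/6 mice, bought at an age of 8 to 10 weeks. The DOCA-salt mice lost the left kidney, received a 50 mg pellet of deoxycorticosterone acetate (DOCA) a week later and drank 1% NaCl for 21 days. The sham mice had a sham operation and normal water, so nephrectomy and DOCA-salt cannot be told apart. Deoxycorticosterone acetate is an agonist of the mineralocorticoid receptor, and with salt it makes mice hypertensive. The comparison asks how nucleotide breakdown and adenosine handling differ at the mRNA level between these kidneys, cell type by cell type.

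Stressed cells release ATP, which acts on P2X and P2Y receptors until enzymes on the cell surface remove its phosphates. Entpd1 (CD39) and Entpd2 remove phosphates from ATP, with Entpd2 strongly favoring the triphosphate, whereas Enpp1 and Enpp3 split ATP into AMP and pyrophosphate. Nt5e (CD73) turns AMP into adenosine, and alkaline phosphatase (Alpl) can remove phosphate from each of these nucleotides and from pyrophosphate. Adenosine acts on its own receptors, enters cells through the equilibrative transporter ENT1 (Slc29a1), and is then phosphorylated by adenosine kinase (Adk) or deaminated by adenosine deaminase (Ada). Entpd5 is mostly an enzyme of the endoplasmic reticulum that hydrolyzes nucleoside diphosphates.

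The libraries held 11058 to 14449 barcodes and 93172739 to 137819127 unique molecular identifiers (UMIs). After limits on mitochondrial UMIs and likely doublets, 7701 to 9933 cells per mouse remained, with a median of 20.2% to 28.0% mitochondrial UMIs in the proximal tubule of sham mice and 18.4% to 23.5% in DOCA-salt mice. Between 33 and 69 barcodes were shared by any pair of libraries. A cluster of 653 cells, 588 of them from DOCA-salt mouse 2, stayed unnamed, and without it the calls for whole kidneys were again 3. Levels are UMIs of a gene per 1000000 UMIs (CPM) in the summed cells of a mouse. Changes are log2 values of DOCA-salt against sham with their standard error (SE), and p-values were adjusted over all genes tested. Each p-value measures the spread between mice only. RNA that leaks from broken cells into all droplets was not corrected for, so proximal tubule markers are given beside results that they move with.

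In whole kidneys, the sum of all cells of a mouse, 3 of the 10 genes rose in DOCA-salt mice and 0 fell, where 17.2% of all 19658 genes tested changed. These were the ATP-hydrolyzing ectoenzymes Entpd1 and Entpd2 and the adenosine transporter Slc29a1. The median change of the 10 genes was 0.32, against −0.02 over all genes. As the genes were chosen with earlier results of these data known, such counts and medians only describe them, here and below. By edgeR 7 of the 10 had an unadjusted p under 0.05, a criterion whose share over all genes was not counted. DESeq2 called 7 of the 10, where it called 22% of all genes. In such sums, fewer cells of a type and less RNA per cell cannot be told apart.

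Entpd1 was at 6.00, 7.73 and 7.68 CPM in the sham mice and at 13.8, 19.9 and 23.5 CPM in the DOCA-salt mice. The groups did not overlap, and the log2 change was 1.29 (SE 0.19, adjusted p = 0.00363). Entpd2 was scarcer in both groups, at 3.42, 3.19 and 3.15 CPM against 5.94, 6.27 and 8.04 CPM. It rose by 0.93 (SE 0.15, adjusted p = 0.00525), again with no overlap. Slc29a1 was at 12.6, 17.1 and 13.9 CPM in sham mice and at 24.99, 23.7 and 30.6 CPM in DOCA-salt mice. Its rise was 0.75 (SE 0.14, adjusted p = 0.00979). These 3 calls held in every alternative tested, including without each mouse in turn.

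The other 7 genes missed the threshold in whole kidneys. Alpl did not overlap between the groups, with 100.2, 104 and 104 CPM in sham mice and 139, 142 and 131 CPM in DOCA-salt mice, and its log2 change was 0.30 (SE 0.09, adjusted p = 0.0515). The CD73 gene Nt5e was at 42.2, 39.1 and 31.1 CPM against 94.1, 45.1 and 60.9 CPM, so that DOCA-salt mouse 1 was far above the other mice (0.72, SE 0.26, adjusted p = 0.0948). Adk was lower in each DOCA-salt mouse, at 207, 199 and 175 CPM against 170.2, 171 and 156 CPM (−0.34, SE 0.10, adjusted p = 0.0537). Enpp3 had a value of −0.39 (SE 0.12, adjusted p = 0.0685), Entpd5 of −0.26 (adjusted p = 0.201), Ada of 0.34 (adjusted p = 0.403) and Enpp1 of −0.07 (adjusted p = 0.624). The summed level of 16 proximal tubule markers was also lower in the whole kidneys of DOCA-salt mice, at 14337 to 23084 CPM against 25179 to 28625 CPM, and its part in these values was not tested.

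**Figure D1:**
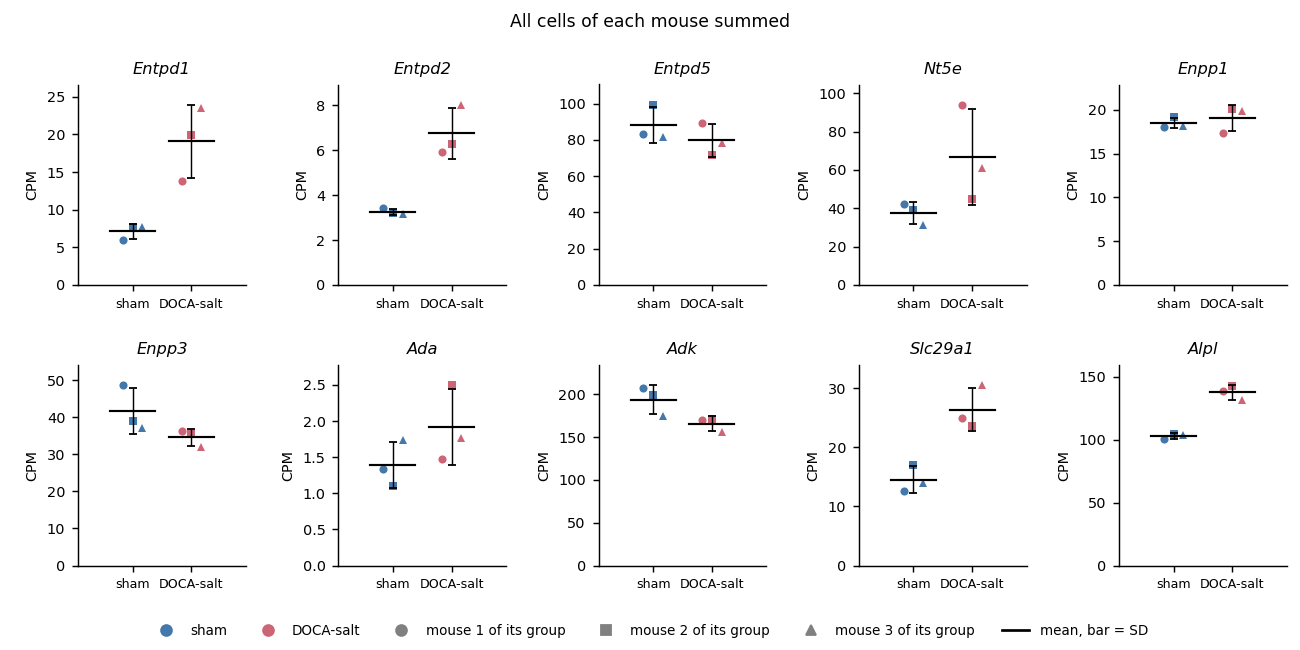
CPM of each of the 10 genes in the summed cells of each mouse, with points for mice, lines at the group means and error bars for the SD (n = 3). The DOCA-salt mice lie above all sham mice for Entpd1 (13.8 to 23.5 against 6.00 to 7.73 CPM), Entpd2 and Slc29a1, and the groups overlap for Enpp1 and Ada.

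The genes were spread over different cell types (Entpd1 and Ada over the endothelium, most others over the proximal tubule). Levels are ordered here among the 15 classes with at least 10 cells in every mouse, which leaves out fibroblasts, neutrophils, podocytes, cycling cells and urothelial cells. Of the Entpd1 UMIs of a mouse, endothelial cells held 59.6% ± 5.1 (SD, n = 3) in sham and 57.6% ± 2.3 in DOCA-salt mice, while the share in macrophages was 8.3% ± 1.1 and 20.6% ± 4.3. By level Entpd1 led among these classes in smooth muscle cells or pericytes (mean of the 6 mice 139 CPM), endothelial cells (129), monocytes (118), dendritic cells (94.7) and macrophages (92.6), and no neighbors in this order differed beyond their spread. In the proximal tubule Entpd1 was at 0.45 CPM, so that the epithelium of this segment was nearly free of CD39 mRNA. Of the 15 classes Ada was highest in endothelial cells (17.3 CPM), apart from the next class, macrophages (5.30 CPM). Among them Slc29a1 was highest in endothelial cells (100.5 CPM) and the connecting tubule (94.5 CPM) and lowest in the proximal tubule (1.22 CPM), while fibroblasts had a mean of 142 CPM. Endothelial cells and the connecting tubule overlapped over the 6 mice. Within the groups, endothelial cells lay below the connecting tubule in sham mice and above it in DOCA-salt mice.

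The proximal tubule carried 86.9% ± 2.7 of the Nt5e UMIs in sham mice and 80.6% ± 7.1 in DOCA-salt mice. Nt5e levels overlapped between T or NK cells (109 CPM), the class named parietal epithelial by its markers (94.4 CPM) and the proximal tubule (76.7 CPM), which stood apart from intercalated cells (30.2 CPM). Adk (239 CPM) and Entpd5 (112 CPM) were highest in the proximal tubule, each apart from the class that came next. Alpl (184 CPM) and Enpp3 (58.9 CPM) also led there among the ordered classes but overlapped with parietal epithelial cells. Enpp1 was different in that its highest level among the 15 classes lay in the thick ascending limb, at 72.8 CPM, apart from the distal convoluted tubule (15.8 CPM) and the proximal tubule (14.9 CPM), while the fewer fibroblasts were at 98.1 CPM. Entpd2 was low in all of these classes, with at most 14.1 CPM, in parietal epithelial cells.

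**Figure D2:**
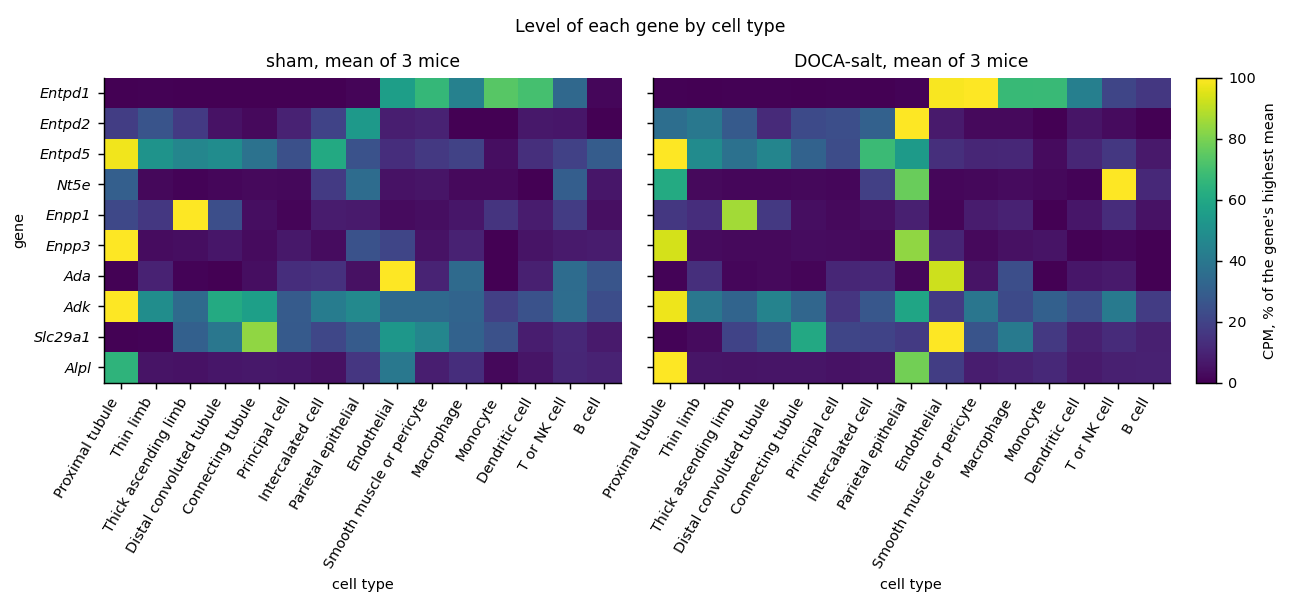
Level of the 10 genes in 15 cell types as a color scale, in percent of the highest mean CPM of each gene, with the mean of the 3 sham mice on the left and of the 3 DOCA-salt mice on the right. Entpd1 is bright in endothelial and myeloid cells and in smooth muscle cells or pericytes but dark in tubular cells, where it stands at 0.45 CPM in the proximal tubule, while Adk, Entpd5 and Alpl are bright in the proximal tubule.

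Across 15 cell types, the genes whose mean log2(CPM + 1) followed a member most closely were named as a description, over 13593 genes. Entpd1 was followed by Ehbp1l1 (Pearson r = 0.984), Mndal (0.953) and Slfn5 (0.948). Alpl was followed by Calml4 (0.979), Igfbp4 (0.971) and Enpp3 (0.969), which is itself among the 10 genes. Enpp3 was followed by Glis1 (0.970), Alpl and Calml4 (0.957). Enpp1 was followed by Gm44588 (0.809), Fabp3 (0.7997) and Umod (0.795), the last of which encodes the uromodulin of the thick ascending limb. For Nt5e the nearest genes were Pyroxd1 (0.862), Epc1 (0.853) and Sec11a (0.825). Ada was nearest to Ocel1 (0.929), Slc14a1 (0.886) and 2810001A02Rik (0.875), and Adk to Cisd3 (0.909), Selenbp1 (0.895) and Dnajc6 (0.888). Entpd5 was nearest to Jmjd4 (0.951), Grb7 (0.950) and Timm10 (0.923), Entpd2 to Gm5148 (0.931), Sema3c (0.928) and Fam131c (0.913), and Slc29a1 to Arhgef2 (0.839), Syt11 (0.765) and Elk3 (0.741). The points share libraries and depth, so these values carry no test.

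In proximal tubule cells, which reabsorb most of the filtered solutes and carry Nt5e and Alpl on their surface, 3 of the 9 genes tested rose (Nt5e, Alpl and Entpd2) and 1 fell (Enpp1), where 7.61% of 16219 genes changed. DESeq2 also called 4, where it called 11.8% of all genes. The median change of the 9 genes was 0.47, against −0.02 over all genes. Ada had 38 UMIs in all and was not tested.

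Alpl was at 138, 146 and 151 CPM in the proximal tubule of the sham mice and at 215, 235 and 217 CPM in that of the DOCA-salt mice. It rose by 0.55 on the log2 scale (SE 0.11, adjusted p = 0.019), with no overlap of the groups. Nt5e was at 57.0, 51.4 and 43.6 CPM against 144, 71.0 and 92.9 CPM. Each DOCA-salt mouse was above each sham mouse, and mouse 1 was the highest (0.95, SE 0.23, adjusted p = 0.0443). Entpd2 rose from 3.23, 3.28 and 3.49 CPM to 5.62, 6.13 and 8.07 CPM (0.91, SE 0.16, adjusted p = 0.0145). Enpp1, at 16.3, 18.6 and 16.1 CPM in sham mice, was at 12.5, 13.9 and 11.9 CPM in DOCA-salt mice (−0.49, SE 0.12, adjusted p = 0.0443). The direction of each was the same in every alternative, but the calls were not. Nt5e missed the threshold without sham mouse 1 (adjusted p = 0.102), sham mouse 3 (0.131), DOCA-salt mouse 1 (0.0723, with a change of 0.61) and DOCA-salt mouse 3 (0.104). Alpl missed it without sham mouse 1 (0.076) and DOCA-salt mouse 1 (0.058), 2 (0.0781) and 3 (0.0754), and Entpd2 without sham mouse 1 (0.0568) and DOCA-salt mouse 3 (0.0655). Enpp1 missed it without sham mouse 1 (0.0777), sham mouse 3 (0.0889) and DOCA-salt mouse 1 (0.118), 2 (0.0799) and 3 (0.189). Counting the other processing choices too, of 15 alternatives the call was lost in 6 for Nt5e, 5 for Alpl, 3 for Entpd2 and 8 for Enpp1.

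Adk and Entpd5, also abundant in these cells, did not pass the test. Adk was at 258, 243 and 224 CPM in sham mice and at 232, 252 and 223 CPM in DOCA-salt mice (−0.11, SE 0.11, adjusted p = 0.584), and the groups overlapped. Entpd5 was at 102, 124 and 106 CPM against 122, 103 and 116 CPM (−0.04, SE 0.12, adjusted p = 0.876). Enpp3 was at 69.1, 55.4 and 58.1 CPM against 56.6, 60.9 and 53.1 CPM (−0.17, SE 0.11, adjusted p = 0.388). Entpd1 (0.11 to 1.08 CPM) and Slc29a1 (0.81 to 1.71 CPM) were close to absent, with values of 1.43 (adjusted p = 0.104) and 0.47 (adjusted p = 0.292).

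Because Nt5e and Alpl rose together here, the windows around their start sites are shown (RefSeq, GRCm38.p6, from 250 bases before to 50 after the start, 5′ to 3′, with CG dinucleotides in capitals). All 10 genes had at least 1 such window, and the text prints those of the genes that rose in the proximal tubule with the most UMIs.
Nt5e, chr9:88327359-88327658, plus strand: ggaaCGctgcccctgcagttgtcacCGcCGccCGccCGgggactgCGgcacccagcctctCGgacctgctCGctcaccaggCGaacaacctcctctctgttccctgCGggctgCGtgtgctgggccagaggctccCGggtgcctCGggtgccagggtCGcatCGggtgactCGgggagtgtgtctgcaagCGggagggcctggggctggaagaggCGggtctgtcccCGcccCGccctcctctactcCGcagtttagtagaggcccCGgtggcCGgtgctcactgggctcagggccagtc
Alpl, first start, chr4:137796335-137796634, minus strand: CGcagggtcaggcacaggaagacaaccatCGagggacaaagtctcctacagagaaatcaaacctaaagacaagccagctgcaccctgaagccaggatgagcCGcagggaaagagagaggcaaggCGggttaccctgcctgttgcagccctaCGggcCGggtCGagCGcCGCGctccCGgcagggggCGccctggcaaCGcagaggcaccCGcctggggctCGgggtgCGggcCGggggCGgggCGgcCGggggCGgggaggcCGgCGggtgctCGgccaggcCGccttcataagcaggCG
Alpl, second start, chr4:137766426-137766725, minus strand: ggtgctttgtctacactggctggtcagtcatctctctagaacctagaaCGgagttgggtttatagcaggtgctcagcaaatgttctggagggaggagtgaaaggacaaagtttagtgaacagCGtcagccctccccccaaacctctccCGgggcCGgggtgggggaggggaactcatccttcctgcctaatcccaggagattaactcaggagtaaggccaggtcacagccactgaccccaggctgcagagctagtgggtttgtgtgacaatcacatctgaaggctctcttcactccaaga
The Nt5e window had 23 CG dinucleotides, and 21.5% of 32851 windows had as many or more. The first Alpl window had 26 (16.9% had as many), whereas the second had 4 (68.6%). The median window had 7. On either strand of these 3 windows, 0 matches were found to GNACANNNTGTNC, the element of the mineralocorticoid and glucocorticoid receptors (in 0.475% of all windows), TGACGTCA, the cAMP response element (1.79%), or ACGTG, the core of the hypoxia response element (19.6%), whose first 4 letters also lie in TGACGTCA. Of the other genes called in the proximal tubule, Entpd2 had 2 ACGTG matches, at −160 and −15 from the start, and Enpp1 had 1, at −25. Such matches also lay in windows of Entpd5 and Slc29a1. The absence of these letters says nothing of the factors themselves. On GRCm39 (GENCODE), the genes lie at chr9:88209089-88254146 on the plus strand (Nt5e) and chr4:137469039-137524102 on the minus strand (Alpl). Alpl overlaps Gm63526 on the same strand, as Entpd1 overlaps Gm50132 and Entpd2 overlaps Npdc1. How reads in the shared bases were counted was not examined. Enpp1 (chr10:24513812-24588057) and Enpp3 (chr10:24648304-24718721) are neighbors on the minus strand, 60246 bases apart.

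The proximal tubule consists of the segments S1, S2 and S3, and clusters were assigned to them by their highest marker score. The S2 cells also held the 10 S3 markers, at 3257 to 4112 CPM in sham and 3166 to 3471 CPM in DOCA-salt mice. In S3 cells these stood at 10182 to 14388 and at 11178 to 13623.5 CPM. An S2 cluster of 2684 cells was led by Kap and the S3 marker Slc7a13, so the S2 class was mixed with S3 by these markers. In S1 cells, 2 of 8 genes tested rose and 0 fell, where 5.65% of genes changed. In S2 cells, 2 of 8 rose and 1 fell, where 10.6% of genes changed. Of the 4 genes tested in S3 cells, edgeR called 0, where 0.427% of genes changed, with 0 at an unadjusted p under 0.05 and 0 by DESeq2. S3 had only 21, 11 and 16 cells in the sham mice and 77, 68 and 42 in the DOCA-salt mice.

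Alpl rose in S2, from 69.8, 69.8 and 73.1 CPM to 125, 119 and 122 CPM (0.72, SE 0.11, adjusted p = 0.00431), and this call held in every alternative. In S1, where Alpl was higher to begin with, it was at 241, 233 and 246 CPM against 327, 329 and 300.2 CPM and missed the threshold (0.35, SE 0.11, adjusted p = 0.0952). The difference between the segments was not tested. Nt5e rose in S2, from 77.7, 76.1 and 57.6 CPM to 216, 113 and 141 CPM (1.10, SE 0.23, adjusted p = 0.0165), and missed the threshold there only without sham mouse 3 (0.0651) among the mice left out. It also rose in S1, from 29.7, 23.5 and 30.6 CPM to 62.5, 38.9 and 56.0 CPM (0.85, SE 0.17, adjusted p = 0.0223). That call was lost without sham mouse 1 (0.0699), sham mouse 3 (0.0508), DOCA-salt mouse 1 (0.0799) and DOCA-salt mouse 3 (0.107), and in 6 of 15 alternatives in all. In S3 Nt5e was at 175, 304 and 259.9 CPM against 248, 216 and 232 CPM, and the groups overlapped (−0.17, SE 0.24, adjusted p = 0.901).

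Entpd2 rose in S1, from 3.86, 4.31 and 4.13 CPM to 7.58, 8.04 and 9.96 CPM (0.99, SE 0.16, adjusted p = 0.00789), a call lost in 1 of 15 alternatives. In S2 it was at 2.78, 2.33 and 3.12 CPM against 3.70, 3.69 and 5.73 CPM (0.59, SE 0.24, adjusted p = 0.139). Enpp1 fell in S2 by 0.46 on the log2 scale (SE 0.12, adjusted p = 0.0397) and in S1 had a value of −0.53 (SE 0.14, adjusted p = 0.0595). The S2 call was lost in 10 of 15 alternatives, namely without sham mouse 1 (0.0997), sham mouse 3 (0.0867) and DOCA-salt mouse 1 (0.139), 2 (0.0691) and 3 (0.149), with library sizes in place of TMM (adjusted p = 0.1), with the mouse number as a block (0.152), with at most 20% mitochondrial UMIs (0.088), with doublets left in (0.092) and at a Leiden resolution of 2 (0.0552).

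The makeup of the proximal tubule moved with these results. The summed level of 11 genes that mark injured proximal tubule was 714, 1196 and 802 CPM in sham mice and 4431, 3112 and 5804 CPM in DOCA-salt mice, and it was higher in each DOCA-salt mouse within S1, S2 and S3 as well. The sum of 6 S2 markers was 1188, 1053 and 1309.5 CPM against 1020.2, 957 and 976 CPM, while the sums of S1 and S3 markers overlapped. Within the S2 cells themselves, the S1 markers were higher in each DOCA-salt mouse, at 2810, 2460.1 and 2865 CPM against 1565, 2419 and 1657 CPM, and the S2 markers lower, at 1392, 1391 and 1394 CPM against 1669, 1500.0 and 1947 CPM. The S3 markers within the S2 cells overlapped between the groups. Alpl, which rose in S2, was higher in S1 than in S2 in each sham mouse. At a Leiden resolution of 2, some clusters of a segment were filled mostly by cells of a single group. An S1 cluster led by Ptgds and Fgg held 20, 48 and 32 cells in the sham mice and 469, 467 and 446 in the DOCA-salt mice. An S2 cluster led by Cndp2 and Kap held 1025, 561 and 739 against 186, 77 and 79, and one led by Serpina1d 25, 28 and 19 against 288, 152 and 186. Others were closer, such as an S1 cluster led by Car3 (771, 716 and 614 against 521, 535 and 567). Cells of low depth without a segment numbered 1583, 557 and 2076 in sham mice and 444, 768 and 1303 in DOCA-salt mice. The part of these shifts in the changes was not tested.

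**Figure D3:**
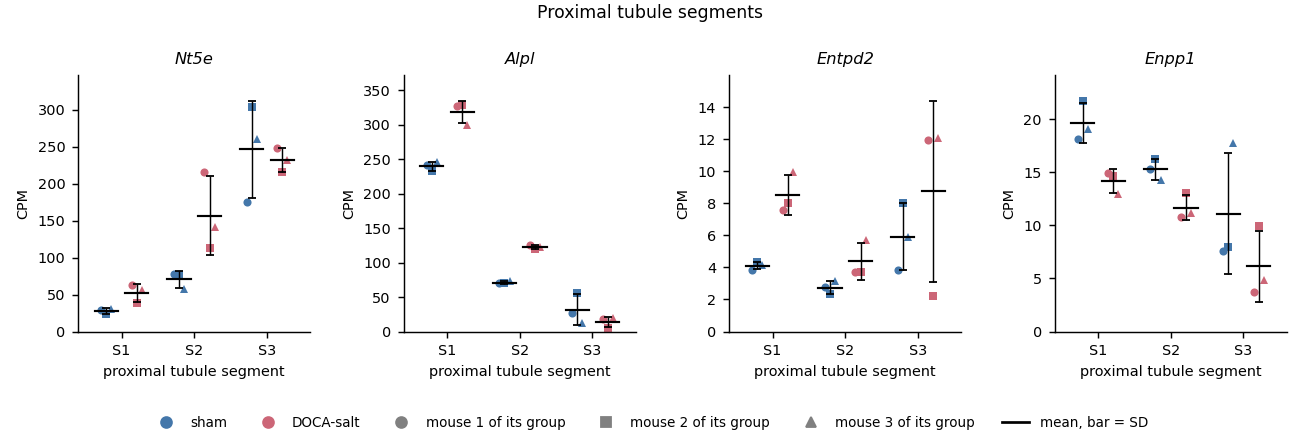
CPM of Nt5e, Alpl, Entpd2 and Enpp1 in S1, S2 and S3 cells of each mouse, with points for mice, lines at the group means and error bars for the SD (n = 3). In S2, Nt5e is at 113 to 216 CPM in DOCA-salt mice against 57.6 to 77.7 CPM in sham mice and Alpl at 119 to 125 against 69.8 to 73.1 CPM, while Nt5e in S3 overlaps between the groups.

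In endothelial cells, 2 genes rose (Entpd1 and Slc29a1) and 4 fell (Alpl, Adk, Enpp3 and Nt5e) among 8 tested, where 9.56% of 12673 genes changed. DESeq2 called 6 as well, where it called 9.34% of all genes. The median change of the 8 genes was −0.55, against 0.00 over all genes. Entpd1 on endothelial cells removes ATP and ADP from the blood side, and Slc29a1 moves adenosine across their membrane.

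Entpd1 was at 89.2, 97.1 and 94.6 CPM in the endothelial cells of sham mice and at 153, 169 and 174 CPM in those of DOCA-salt mice (0.84, SE 0.11, adjusted p = 0.00152). Slc29a1 was at 64.2, 90.9 and 53.7 CPM against 134, 120.2 and 139.5 CPM (0.94, SE 0.17, adjusted p = 0.0061). The groups were apart for both genes. Alpl went the other way, from 81.7, 82.0 and 103 CPM to 44.3, 40.1 and 36.03 CPM (−1.14, SE 0.15, adjusted p = 0.00123), and Adk from 87.1, 87.1 and 73.6 CPM to 47.3, 37.2 and 37.3 CPM (−1.01, SE 0.13, adjusted p = 0.00137). These 4 calls were kept without each mouse.

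Enpp3 was at 11.9, 14.1 and 11.9 CPM in endothelial cells of sham mice and at 5.63, 5.73 and 7.32 CPM in those of DOCA-salt mice (−0.99, SE 0.22, adjusted p = 0.0167). Its call was lost without sham mouse 3 (0.0538), DOCA-salt mouse 1 (0.0539) and DOCA-salt mouse 2 (0.0559), and with doublets left in (−0.75, adjusted p = 0.0543). Nt5e was at 6.20, 12.7 and 5.04 CPM against 3.42, 2.35 and 3.47 CPM (−1.33, SE 0.37, adjusted p = 0.0469). That call was lost without sham mouse 1 (0.0678), 2 (0.106) and 3 (0.0501) and without DOCA-salt mouse 1 (0.0942), 2 (0.138) and 3 (0.105). It was also lost at a limit of 20% mitochondrial UMIs (0.0518), and with doublets left in and the cells clustered again the value was −0.02 (adjusted p = 0.987). Of 15 alternatives, 9 lost the Nt5e call and 5 that of Enpp3. A cluster of 30 endothelial cells led by Ehd3 and hemoglobin genes held 14, 31 and 9 of the Nt5e UMIs in the sham mice and 0, 1 and 4 in the DOCA-salt mice. Ada, highest in this cell type among the 15 classes, was at 18.3, 13.7 and 21.95 CPM against 15.3, 21.0 and 13.5 CPM (−0.10, adjusted p = 0.851).

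The sum of proximal tubule markers in endothelial cells was also lower in DOCA-salt mice (870.2 to 2066 CPM) than in sham mice (2249 to 3969.8 CPM). These markers reached 8.04%, 6.15% and 9.32% of their level in the proximal tubule of the same sham mouse and 3.39% to 6.80% in DOCA-salt mice. Alpl in endothelial cells stood at 56.3% to 68.5% of its proximal tubule level in sham mice and at 16.6% to 20.5% in DOCA-salt mice, and Adk at 32.9% to 35.8% against 14.7% to 20.4%. Both thus exceeded the share of the markers in all 6 mice. Enpp3 stood at 17.2%, 25.4% and 20.4% in sham mice and at 9.95%, 9.41% and 13.8% in DOCA-salt mice. It was above the markers in each mouse but fell along with them, and their part in its call was not tested. Nt5e, in contrast, stood at 10.9%, 24.7% and 11.6% of its proximal tubule level in sham mice and at 2.37%, 3.31% and 3.74% in DOCA-salt mice, below the markers in each DOCA-salt mouse, and the part of proximal tubule RNA in its call was not tested.

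The endothelial class held a cluster led by the capillary genes Plvap and Kdr and one led by Slc14a1 and Sox17, and the mix moved between the groups. The Plvap cluster had 273, 300 and 242 cells in the sham mice and 402, 547 and 524 in the DOCA-salt mice, the Slc14a1 cluster 177, 169 and 200 against 122, 106 and 130. Within the Plvap cluster, 1 of 7 genes tested rose and 3 fell, where 7.32% of genes changed. Entpd1 rose there from 119, 119 and 99.7 CPM to 180.4, 189 and 205 CPM (0.76, SE 0.13, adjusted p = 0.00367). Alpl fell from 98.9, 56.9 and 84.8 CPM to 29.7, 34.0 and 31.9 CPM (−1.34, SE 0.19, adjusted p = 0.00114), and Adk by 0.93 on the log2 scale (SE 0.18, adjusted p = 0.00735). Ada fell in this cluster, from 47.8, 33.4 and 69.9 CPM to 24.6, 27.7 and 17.6 CPM (−1.09, SE 0.26, adjusted p = 0.0225), whereas its change in the endothelium as a whole did not pass the test. Slc29a1 was at 124, 149 and 95.1 CPM against 200.3, 149 and 176 CPM and missed the threshold (0.50, SE 0.17, adjusted p = 0.0847).

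Within the Slc14a1 cluster, 2 of 6 genes fell and 0 rose, where 0.896% of genes changed. These were Adk (−0.80, SE 0.17, adjusted p = 0.0473) and Enpp3 (−1.93, SE 0.41, adjusted p = 0.0409). Entpd1 was at 79.6, 97.9 and 100.3 CPM in the sham mice and at 109, 115 and 105 CPM in the DOCA-salt mice (0.22, SE 0.15, adjusted p = 0.656). Slc29a1 was at 24.2, 49.3 and 33.9 CPM against 37.8, 36.2 and 37.8 CPM (0.05, SE 0.24, adjusted p = 0.962). Alpl had a value of −0.61 (SE 0.21, adjusted p = 0.252). Whether the clusters differed in their response was not tested. The tests within clusters were added after the data had been seen and were not repeated under the alternatives.

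**Figure D4:**
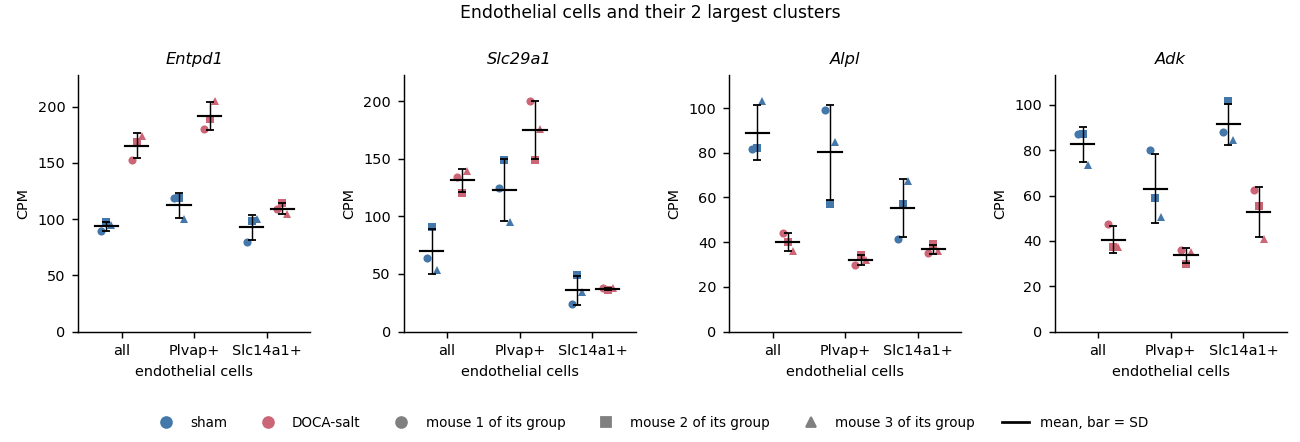
CPM of Entpd1, Slc29a1, Alpl and Adk in all endothelial cells, in the Plvap cluster and in the Slc14a1 cluster of each mouse, with points for mice, lines at the group means and error bars for the SD (n = 3). Entpd1 is apart between the groups in all 3 sets of cells (89.2 to 97.1 against 153 to 174 CPM in all endothelial cells). In the Slc14a1 cluster its change missed the threshold. Alpl and Adk are lower in the DOCA-salt mice in all 3 sets of cells.

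The 14 classes other than the proximal tubule gave 19 calls in all, of which 6 were endothelial. In the distal nephron, Adk, which phosphorylates adenosine to AMP inside cells, fell in 4 classes. In the connecting tubule 0 of the 4 genes tested rose and 2 fell, where 24.3% of genes changed. In the distal convoluted tubule 0 of 5 rose and 2 fell, where 7.79% changed. In intercalated cells 0 of 9 rose and 1 fell, where 5.92% changed, and in principal cells 0 of 4 rose and 1 fell, where 7.82% changed.

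Adk in the connecting tubule fell from 147, 129 and 135 CPM to 95.5, 60.9 and 83.03 CPM (−0.97, SE 0.17, adjusted p = 0.000915), a call that held in every alternative. In intercalated cells, which secrete acid or base, it fell from 107, 98.1 and 100.5 CPM to 68.4, 63.0 and 64.6 CPM (−0.61, SE 0.11, adjusted p = 0.00841). Without DOCA-salt mouse 3 the adjusted p was 0.0546. In principal cells it was at 71.1, 61.8 and 75.2 CPM in sham mice and at 42.5, 26.2 and 42.6 CPM in DOCA-salt mice (−0.86, SE 0.20, adjusted p = 0.0169). Here the call was lost without sham mouse 1 (0.0556), sham mouse 3 (0.0698) and DOCA-salt mouse 2 (0.0634). In the distal convoluted tubule it was at 131, 167 and 146 CPM against 94.1, 117 and 112 CPM (−0.59, SE 0.16, adjusted p = 0.0243), and without sham mouse 3 (0.0881), DOCA-salt mouse 1 (0.161) and DOCA-salt mouse 3 (0.0947) the call was lost. The groups did not overlap in any of these 4 classes. Among 15 alternatives the Adk call was lost in 3 for intercalated cells, 3 for principal cells and 5 for the distal convoluted tubule. The principal cells lay in different clusters by group at a Leiden resolution of 2. A cluster led by Mgat4c, Hsd11b2 and Spock3 held 100, 121 and 132 of them in sham mice and 18, 18 and 16 in DOCA-salt mice, and one led by Aqp4 and Aqp2, with Lcn2, held 89, 82 and 79 against 100, 88 and 114. The part of this shift in the Adk value was not tested.

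Proximal tubule markers were lower in the connecting tubule of each DOCA-salt mouse, while their levels overlapped between the groups in the other 3 classes. Their sum in the connecting tubule was 1773 to 4246 CPM in sham mice and 779 to 1522 CPM in DOCA-salt mice, and in intercalated cells 1225 to 2709.7 against 918 to 1277 CPM. It was 1320.4 to 3591 against 1036 to 1776 CPM in principal cells and 1439.6 to 4511 against 1148 to 1891 CPM in the distal convoluted tubule. In the connecting tubule they reached 4.85% to 9.97% of their proximal tubule level in sham mice and 3.04% to 5.01% in DOCA-salt mice. Adk there reached 52.9% to 60.4% against 24.2% to 41.2%.

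Slc29a1 fell in the connecting tubule, from 105, 127 and 97.1 CPM to 113, 56.7 and 68.2 CPM, and the groups overlapped because DOCA-salt mouse 1 lay within the sham range (−0.64, SE 0.21, adjusted p = 0.0416). DESeq2 gave 0.069, and the call was lost without sham mouse 1 (0.0913), 2 (0.0824) or 3 (0.056) and without DOCA-salt mouse 2 (0.186) or 3 (0.155). In the distal convoluted tubule it was at 45.0, 63.9 and 47.8 CPM in sham mice and at 42.02, 26.1 and 37.2 CPM in DOCA-salt mice (−0.71, SE 0.20, adjusted p = 0.0314). This call was lost with DESeq2 (0.066), without sham mouse 1 (0.0577), 2 (0.0559) or 3 (0.091), and without DOCA-salt mouse 2 (0.124) or 3 (0.0729). With at most 20% mitochondrial UMIs its value was −0.39 (adjusted p = 0.568). Of 15 alternatives, 9 lost the Slc29a1 call in the connecting tubule and 10 that in the distal convoluted tubule.

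In the thick ascending limb, edgeR called 0 of 8 genes (2 at an unadjusted p under 0.05, 0 by DESeq2), where 1.56% of genes changed. Enpp1, which was highest in this segment among the 15 classes, was at 74.4, 86.6 and 73.4 CPM in sham mice and at 66.0, 67.3 and 68.8 CPM in DOCA-salt mice (−0.21, SE 0.11, adjusted p = 0.467). In the thin limb it called 0 of 6 (1 at an unadjusted p under 0.05, 0 by DESeq2), where 0.688% of genes changed.

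The class named parietal epithelial by its markers was led by Wt1, Cp and Ncam1, and in it 4 of 8 genes tested rose and 1 fell, where 18.7% of 11610 genes changed. DESeq2 also called 5, where it called 15.7% of all genes. Alpl was at 27.5, 24.97 and 52.9 CPM in sham mice and at 160.2, 189.6 and 176 CPM in DOCA-salt mice (2.35, SE 0.23, adjusted p = 2.82e-05). Enpp3 rose from 11.2, 16.9 and 17.6 CPM to 46.5, 55.3 and 50.1 CPM (1.75, SE 0.21, adjusted p = 0.000136). Nt5e rose from 73.2, 41.9 and 63.5 CPM to 145, 100.4 and 142 CPM (1.16, SE 0.21, adjusted p = 0.00209). The groups were apart for these 3 genes.

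Entpd5 in parietal epithelial cells was at 18.3, 50.7 and 16.8 CPM in sham mice and at 55.9, 61.1 and 68.7 CPM in DOCA-salt mice, with sham mouse 2 far above the other sham mice (1.11, SE 0.30, adjusted p = 0.0188). Its call was lost without sham mouse 1 (0.0967), sham mouse 3 (0.0718) and DOCA-salt mouse 3 (0.075). Slc29a1 fell from 30.5, 45.9 and 36.2 CPM to 24.3, 18.2 and 24.0 CPM (−0.75, SE 0.21, adjusted p = 0.0225), and that call was lost without sham mouse 2 (0.104) and DOCA-salt mouse 2 (0.0725). The class had 79, 100 and 103 cells in the sham mice and 147, 181 and 191 in the DOCA-salt mice.

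The class was a mix that differed between the groups. At a Leiden resolution of 2, 13, 20 and 33 of the cells given this name in the sham mice and 100, 127 and 130 in the DOCA-salt mice lay in a cluster led by Havcr1, Kcnh8, C3 and Sox9, of which Havcr1 is a marker of injured tubule. A cluster led by Pcp4, Wt1 and Ncam1 held the other 66, 80 and 70 against 53, 56 and 58 cells. Most cells of the class thus lay in different clusters in the 2 groups, and the part of that in the changes was not tested.

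Markers of the proximal tubule were higher in the same cells. Their sum was 2531, 2479 and 4121 CPM in the parietal epithelial cells of sham mice and 6208, 7528 and 7839 CPM in those of DOCA-salt mice, or 6.19% to 9.67% against 16.4% to 29.3% of the proximal tubule level. The sum of the 11 injury genes was 6062 to 8435 against 11009 to 19412 CPM. When doublets were left in and the cells clustered again, the cluster led by C3, Ptgds and Havcr1 had no name, the class consisted of a cluster led by Pcp4, Wt1 and Msmp with 53 to 81 cells a mouse, and the values were 0.54 for Alpl (adjusted p = 0.483), 0.54 for Nt5e (0.466), −0.31 for Entpd5 (0.726) and 0.41 for Slc29a1 (0.367). Enpp3 was not tested there.

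In macrophages, 0 of 6 genes tested rose and 1 fell by edgeR, where 7% of 9153 genes changed. DESeq2 called 0, where it called 5.69% of all genes. The gene that fell was Adk, from 80.9, 80.4 and 72.0 CPM to 58.4, 52.4 and 50.9 CPM (−0.61, SE 0.16, adjusted p = 0.0328). The groups were apart, but the call was lost with DESeq2 (0.0572) and without sham mouse 1 (0.12), 2 (0.0776) or 3 (0.0913) and DOCA-salt mouse 2 (0.0606) or 3 (0.1), and in 9 of 15 alternatives in all. Entpd1 was at 73.8, 75.0 and 70.1 CPM in macrophages of sham mice and at 98.3, 112 and 127 CPM in those of DOCA-salt mice, with no overlap, and missed the threshold (0.55, SE 0.16, adjusted p = 0.0559). Different clusters filled the class, mostly one led by Ccl4, Ccl3 and Mmp13 in sham mice and those led by Ccl7 and Ccl12, by Ptpro and C1qa, and by Lyz2 and C1qb in DOCA-salt mice. The sum of proximal tubule markers in macrophages was 4649.8 to 6326 CPM in sham mice and 2046 to 3062 CPM in DOCA-salt mice.

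In T or NK cells, 1 of 3 genes tested rose, where 3.45% of genes changed. Nt5e, which as CD73 makes adenosine on regulatory and other T cells, was at 31.8, 46.0 and 71.8 CPM in sham mice and at 174, 104 and 226 CPM in DOCA-salt mice (1.74, SE 0.32, adjusted p = 0.00438). The groups were apart and the call held in every alternative, on 45 UMIs in sham and 258 in DOCA-salt mice. The mix of cells also moved, and the part of this in the Nt5e value was not tested. A cluster led by Tox, Ctla4 and Tnfrsf4 had 4, 4 and 2 cells in the sham mice and 24, 17 and 41 in the DOCA-salt mice. It held 1 Nt5e UMI in sham and 93 in DOCA-salt mice. One led by Cd28, Themis and Trbc2 (13, 8 and 22 against 42, 26 and 25 cells) held 4 and 76. One with Il17a and Il23r (1, 2 and 3 against 14, 3 and 12 cells) held 0 and 35. One led by Ccl5 and Nkg7 (31, 10 and 14 against 24, 37 and 43 cells) held 1 and 32. A cluster led by Kcnq5, Xcl1 and Ifng (27, 35 and 36 against 13, 12 and 11 cells) held 32 and 13. One led by Gzma and Xcl1 (26, 32 and 12 against 9, 6 and 7 cells) held 1, 2 and 4 against 1, 0 and 8. Entpd1 in T or NK cells was at 80.9, 70.8 and 17.1 CPM against 29.3, 40.3 and 34.2 CPM (−0.75, SE 0.39, adjusted p = 0.401).

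Among the remaining classes, edgeR called 0 of 4 genes in smooth muscle cells or pericytes (2 at an unadjusted p under 0.05, 0 by DESeq2), where 1.76% of genes changed. There Entpd1 was at 86.6, 156 and 90.1 CPM in sham and at 168, 192 and 141 CPM in DOCA-salt mice (0.55, SE 0.22, adjusted p = 0.270). In dendritic cells 0 of 2 were called (1 at an unadjusted p under 0.05, 0 by DESeq2), where 0.0375% of genes changed. Entpd1 was at 155, 90.5 and 107 CPM there against 53.8, 73.6 and 88.3 CPM (−0.73, SE 0.28, adjusted p = 0.572). In B cells and monocytes none of the genes had enough counts to be tested, and 0% of all genes changed in each.

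Fibroblasts were too few in sham mice for the test as planned (24, 6 and 9 cells, against 217, 296 and 306 in DOCA-salt mice), and a test without the minimum number of cells was added after the data had been seen. At a Leiden resolution of 2, a fibroblast cluster led by Mgp held 1, 3 and 2 cells in the sham mice and 201, 279 and 288 in the DOCA-salt mice, and one led by Sfrp4, Lum and Rbp4 held 23, 3 and 7 against 16, 17 and 18, so that mostly different clusters filled the class in sham mice 1 and 3 than in the DOCA-salt mice. The part of this in the values was not tested. In the added test 1 of 8 genes rose and 2 fell, where 5.3% of genes changed, and DESeq2 called 2. Enpp1, whose pyrophosphate restrains mineralization, was at 59.4, 82.9 and 16.5 CPM in sham mice and at 135, 138 and 157 CPM in DOCA-salt mice (1.40, SE 0.39, adjusted p = 0.0412). Its call was lost without sham mouse 1 (0.236), sham mouse 3 (0.124) and DOCA-salt mouse 1 (0.0929), 2 (0.0969) and 3 (0.15), and in 6 of 10 alternatives in all. Enpp3 was at 139, 0 and 247 CPM against 11.9, 10.0 and 7.64 CPM (−3.85, SE 0.54, adjusted p = 0.000289), and without sham mouse 1 the adjusted p was 0.0682. Entpd2 was at 178, 0 and 16.5 CPM against 32.4, 16.2 and 23.8 CPM, and its value of −2.14 (SE 0.59, adjusted p = 0.0401) turned to 1.43 (adjusted p = 0.698) without sham mouse 1. Sham mouse 2, with 6 fibroblasts, had 0 UMIs of both genes. The median of all genes in this fit was 0.16.

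**Figure D5:**
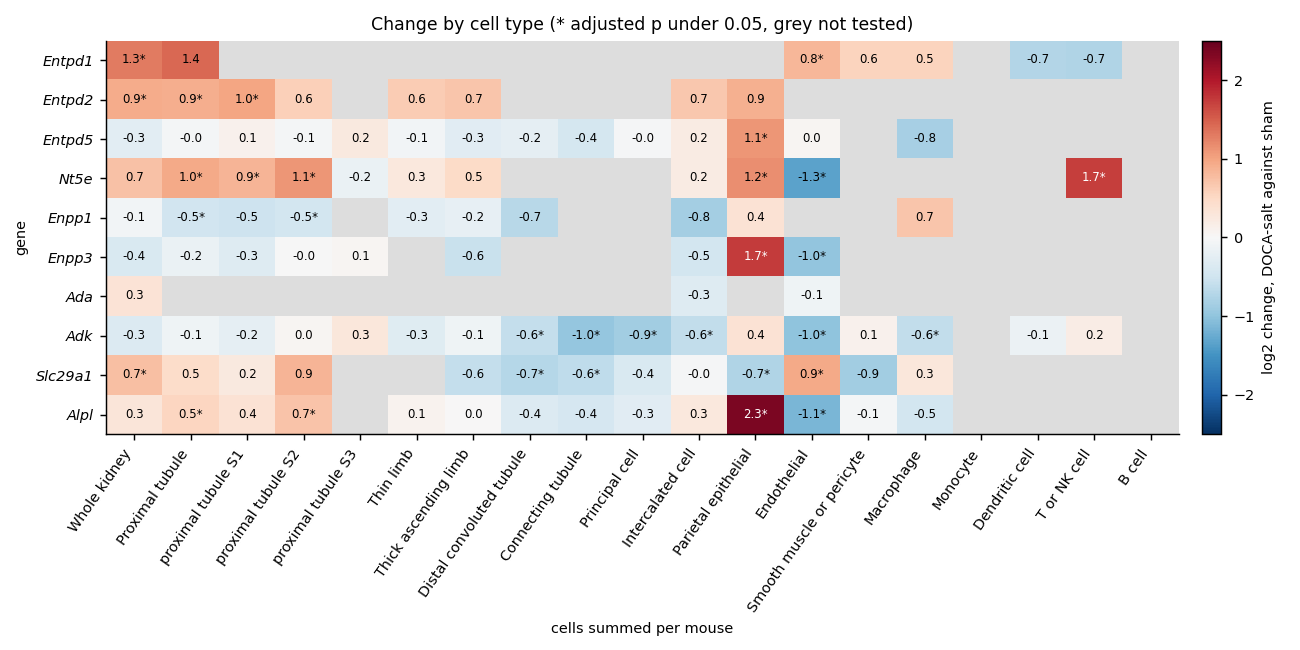
Log2 change (DOCA-salt against sham, edgeR) of the 10 genes in the whole kidney and in each cell type, as a color scale centered at 0 with the value printed in each cell, with an asterisk for an adjusted p under 0.05 and grey where a gene was not tested. Adk is lower in endothelial cells, macrophages, the connecting and distal convoluted tubule, intercalated cells and principal cells, while Nt5e and Alpl are higher in the proximal tubule. The values of the parietal epithelial class come from a mix of clusters that differed between the groups.

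For Enpp1, whose level in the whole kidney did not pass the test, the cell types that held its UMIs differed between the groups. Enpp1 was at 18.1, 19.2 and 18.2 CPM in the whole kidneys of sham mice and at 17.3, 20.05 and 19.9 CPM in those of DOCA-salt mice. Fibroblasts held 0.3% ± 0.2 of its UMIs in sham mice and 29.3% ± 9.2 in DOCA-salt mice, while the proximal tubule went from 58.9% ± 5.3 to 35.1% ± 6.0 and the thick ascending limb from 29.4% ± 5.0 to 21.4% ± 3.4. Of the Slc29a1 UMIs, fibroblasts held 1.2% ± 1.2 and 21.0% ± 2.7, and endothelial cells 21.2% ± 1.5 and 32.6% ± 3.0. Fibroblast levels of Slc29a1 in the DOCA-salt mice, at 169.9, 125 and 144 CPM, lay above those of the proximal tubule (1.19 to 1.71 CPM). These shares depend on how many cells of each type were recovered after digestion of the tissue, and they carry no test.

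Whether the change of a gene in another cell type differed from its change in the proximal tubule was tested in a joint model of both types and each mouse as a block. The 14 classes gave 23 calls for the 10 genes. In the endothelium 4 of 10 genes had a lower change than in the proximal tubule (Nt5e, Enpp3, Adk and Alpl), where 9.51% of all genes differed in either direction. For Alpl, which rose in the proximal tubule and fell in the endothelium, the difference was −1.70 (SE 0.13, adjusted p = 3.43e-06), and for Nt5e −2.24 (SE 0.33, adjusted p = 0.000611). With doublets left in, the difference of Nt5e (−0.96, adjusted p = 0.107) and that of Enpp3 (−0.54, adjusted p = 0.169) missed the threshold. In parietal epithelial cells 4 genes had a higher change (Enpp3, Alpl, Entpd5 and Adk) and 1 a lower one (Slc29a1), where 20.9% of genes differed. With doublets left in, none of these 5 passed the test, with 0.10 for Enpp3 (adjusted p = 0.959), 0.12 for Alpl (0.89), −0.26 for Entpd5 (0.665), −0.11 for Adk (0.838) and −0.53 for Slc29a1 (0.489).

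Adk had a lower change than in the proximal tubule in the connecting tubule (−0.88, SE 0.18, adjusted p = 0.000163), the distal convoluted tubule (−0.48, SE 0.14, adjusted p = 0.0251), intercalated cells (−0.52, SE 0.11, adjusted p = 0.0106) and principal cells (−0.74, SE 0.20, adjusted p = 0.0242). Among 14 alternatives the call was lost in 0 for the connecting tubule, 4 for the distal convoluted tubule (adjusted p up to 0.171), 2 for intercalated cells (up to 0.0603) and 3 for principal cells (up to 0.172), and DESeq2 did not make it in principal cells (0.0656) or the distal convoluted tubule (0.05). In the connecting tubule 3 genes differed, where 16.3% of genes did, and in the distal convoluted tubule 3, where 9.59% did. Intercalated cells had 2 such genes (background 7.15%), and principal cells 1 (7.42%). The thick ascending limb had 1 (4.13%), macrophages 1 (6.52%), dendritic cells 1 (1.09%), T or NK cells 1 (2.17%) and smooth muscle cells or pericytes 1 (2.74%). In the thin limb (5.44% of genes), B cells (0.195%) and monocytes (0.298%) edgeR called 0 of the genes, with 0, 1 and 1 at an unadjusted p under 0.05 and 0 by DESeq2 in each. In B cells and monocytes the genes had too few counts for a test of their own. They entered the joint model through the proximal tubule, so these results cannot decide whether they changed in B cells or monocytes. Nt5e in smooth muscle cells or pericytes entered in the same way. Fibroblasts, added later, had 3 (4.66%). DESeq2 called 0 of the differences in the thick ascending limb, principal cells, T or NK cells and smooth muscle cells or pericytes, 1 in the distal convoluted tubule and 1 in fibroblasts. Differences for Entpd1 and Slc29a1 set a class that expresses the gene against a proximal tubule at 0.11 to 1.71 CPM.

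The 34 further genes of nucleotide and adenosine metabolism that the count tables name were read in the same fits. In whole kidneys 30 were tested, of which 3 rose and 2 fell, where 17.2% of all genes changed, so the share called in the list was near that of all genes. The adenosine receptors Adora2a and Adora2b, both of which raise cAMP, rose by 1.27 (SE 0.24, adjusted p = 0.0096) and 0.79 (SE 0.22, adjusted p = 0.0417). Adora2a was at 1.08 ± 0.16 CPM in sham and 2.84 ± 0.85 CPM in DOCA-salt mice (SD, n = 3) and held in every alternative. Adora2b was at 1.15 ± 0.24 and 2.18 ± 0.40 CPM and was lost without sham mouse 1 (0.141) or 2 (0.0691) and DOCA-salt mouse 2 (0.1) or 3 (0.15). Gda, the guanine deaminase, rose from 6.52 ± 1.1 to 11.0 ± 2.0 CPM (0.63, SE 0.17, adjusted p = 0.0424) and was lost without sham mouse 1 (0.136) or 3 (0.0514) and DOCA-salt mouse 2 (0.0886) or 3 (0.157). Ahcy, which hydrolyzes S-adenosylhomocysteine to adenosine and homocysteine, fell from 12.7 ± 2.1 to 8.05 ± 0.88 CPM (−0.77, SE 0.16, adjusted p = 0.0152) and was lost without sham mouse 1 (0.0647) or 3 (0.051) and DOCA-salt mouse 3 (0.0654). The acid phosphatase Acpp fell from 2.85 ± 0.13 to 2.08 ± 0.09 CPM (−0.58, SE 0.14, adjusted p = 0.0291) and was lost without every mouse except sham mouse 2 (0.0524 to 0.123). In all, 14 alternatives lost the call 5 times for Adora2b, 4 for Gda, 3 for Ahcy and 7 for Acpp.

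In the proximal tubule 25 of the 34 genes were tested, of which 1 rose and 0 fell, where 7.61% of all genes changed. It was Adora2b, from 0.55 ± 0.03 to 1.27 ± 0.33 CPM (1.13, SE 0.25, adjusted p = 0.0316), and its call was lost without sham mouse 1 (0.0976) or 3 (0.0915) and without DOCA-salt mouse 1 (0.0546), 2 (0.0706) or 3 (0.129), and in 8 of 15 alternatives in all. The levels rest on 79 UMIs in sham and 171 in DOCA-salt mice.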

How the data were processed

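Kidneys of 3 sham and 3 DOCA-salt mice were digested with collagenase, and single cells were sequenced by the 10x Genomics 3′ method. The deposited files hold raw UMI counts for every gene in each barcode called as a cell, without cell-type labels. Reads had been aligned to GRCm39 with Cell Ranger, whose release is 9.0.0 in the processing notes and 8.0.1 in the file headers. The notes also name R 4.0.3 and Seurat 4.0.0. The files held 93172739 to 137819127 UMIs per mouse. The release of the annotation is not given in the sources used here.

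Barcodes needed 170 or more genes and 500 or more UMIs. Those with over 50% mitochondrial or over 5% hemoglobin UMIs were dropped. Scrublet scores (scanpy 1.11.5) served to remove the top 0.8% per 1000 barcodes of each mouse. The 2000 most variable genes, without the genes tested here, gave 30 principal components, 15 neighbors and Leiden clusters (leidenalg 0.10.2) at resolution 1, and immune clusters were clustered again. Clusters were named by markers, with at least 3 detected. The authors' doublet caller and integration (DoubletFinder, Harmony) were not used.

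Counts were summed per mouse and class (at least 10 cells in every mouse) and compared with edgeR 4.0.16 in R 4.3.3 (TMM, its filter on low counts, quasi-likelihood F test, Benjamini-Hochberg adjustment over all genes tested, threshold 0.05). The SE is the size of the change over the square root of F. CPM values are of the plain sums. Tests were tried on simulated counts first. Alternatives replaced edgeR by DESeq2 1.42.0 or TMM by the size factors of DESeq2 or by library sizes, tested all genes without the filter, dropped each mouse in turn, blocked on the mouse number, limited mitochondrial UMIs to 20%, asked for 1000 UMIs per cell, kept doublets, or set the Leiden resolution to 2. Genes named beyond the 10 were those of a list of 34 that passed the threshold in whole kidney or proximal tubule (at most 8), and for each of the 10 genes the 3 with the highest correlation over cell types among genes with at least 10 CPM in a type.

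The 10 genes and the list of 34 were chosen with earlier results of these data known.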

Additional observations from a re-analysis of the deposited data

Results flagged for a closer look

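With 3 mice a group, single mice were not tested as outliers. These are differences between 2 changes (log2 change in the named cell type minus that in the proximal tubule, edgeR with each mouse as a block), each past the adjusted threshold of 0.05. Each was recomputed under 14 alternatives, or 10 in fibroblasts.

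In the endothelium the difference was −2.24 for Nt5e, −1.70 for Alpl, −0.92 for Adk (adjusted p = 0.000607) and −0.84 for Enpp3 (adjusted p = 0.0238). The call was lost in 6 alternatives for Enpp3 (adjusted p up to 0.169) and 1 for Nt5e (0.107), and in 0 for Alpl and Adk. In parietal epithelial cells it was 2.03 for Enpp3 (adjusted p = 1.03e-06), 1.95 for Alpl (adjusted p = 6.66e-07), 1.31 for Entpd5 (adjusted p = 0.000546), 0.60 for Adk (adjusted p = 0.0124) and −1.08 for Slc29a1 (adjusted p = 0.0198). The cells of this class also held more RNA of proximal tubule markers in DOCA-salt mice (6208 to 7839 CPM against 2479 to 4121 CPM). At a Leiden resolution of 2, most of them lay in a cluster led by Havcr1 in DOCA-salt mice but not in sham mice, and the part of either in the differences was not tested. With doublets left in, the 5 differences missed the threshold, and 8 alternatives in all ended the call for Adk and 4 that for Slc29a1.

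In the connecting tubule the difference was −0.88 for Adk, −1.12 for Slc29a1 (adjusted p = 0.00172) and −0.98 for Alpl (adjusted p = 0.0137). In the distal convoluted tubule it was −0.48 for Adk, −1.15 for Slc29a1 (adjusted p = 0.0076) and −0.89 for Alpl (adjusted p = 0.0353). In the distal convoluted tubule the call was lost in 4 alternatives for Adk (up to 0.171), 2 for Slc29a1 (up to 0.26) and 5 for Alpl (up to 0.492), and DESeq2 called only Slc29a1 there. In the connecting tubule only Alpl lost it, in 4 alternatives (up to 0.189), DESeq2 among them (0.0782). Alpl in the connecting tubule stood at 4.76% to 12.97% of its proximal tubule level, where proximal tubule markers stood at 3.04% to 9.97%. In the distal convoluted tubule the ranges were 4.499% to 13.3% for Alpl and 3.82% to 10.6% for the markers. Intercalated cells differed for Nt5e (−0.74, adjusted p = 0.019) and Adk (−0.52), principal cells, whose cluster mix differed between the groups, for Adk (−0.74), and the thick ascending limb for Slc29a1 (−1.08, adjusted p = 0.0423). The last of these was lost in 9 of the 14 alternatives (up to 0.286), DESeq2 among them (adjusted p = 0.2). Nt5e in intercalated cells was lost in 4 (up to 0.0985), Adk there in 2 (up to 0.0603) and Adk in principal cells in 3 (up to 0.172).

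Among other cells, macrophages differed for Alpl (−0.91, adjusted p = 0.0228), dendritic cells for Entpd1 (−2.11, adjusted p = 0.0187), T or NK cells for Entpd1 (−2.09, adjusted p = 0.0466) and smooth muscle cells or pericytes for Nt5e (−2.60, adjusted p = 0.0092). In smooth muscle cells or pericytes Nt5e was not among the 4 genes with enough counts for a test of their own. It entered the joint model through the proximal tubule, so its difference cannot be read as a tested change in these cells. Calls were lost in 4 alternatives for macrophages (up to 0.24), 5 for dendritic cells (up to 0.398), 8 for T or NK cells (up to 0.486) and 3 for smooth muscle cells or pericytes, where leaving out sham mouse 1 gave −1.24 (adjusted p = 0.797). DESeq2 did not call those in T or NK cells (0.268) or in smooth muscle cells or pericytes (0.385). Alpl in macrophages stood at 17.5% to 24.5% of its proximal tubule level in sham mice and at 8.81% to 11.5% in DOCA-salt mice, where the markers stood at 11.4% to 14.8% and 7.38% to 10.1%. Nt5e in smooth muscle cells or pericytes stood at 38.0%, 6.97% and 8.99% in sham and 3.45%, 0% and 6.14% in DOCA-salt mice, below the markers in 5 of 6 mice (21.6%, 10.6% and 12.4% against 3.49%, 5.89% and 7.59%). The part of proximal tubule RNA in these differences was not tested. For Entpd1 and Slc29a1 these values set a class against the proximal tubule, where Entpd1 had 33 UMIs in the sham and 87 in the DOCA-salt mice. In fibroblasts, with 6 to 24 cells in a sham mouse and mostly different clusters filling the class in sham mice 1 and 3 than in the DOCA-salt mice, the difference was 2.03 for Enpp1 (adjusted p = 0.00024), −2.88 for Entpd2 (adjusted p = 0.000292) and −3.47 for Enpp3 (adjusted p = 5.74e-07), in a fit whose median over all genes was 0.44. Without sham mouse 1 the Entpd2 difference turned to 0.81 (adjusted p = 0.918), and DESeq2 called neither Entpd2 (0.489) nor Enpp1 (0.0533).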

How the results depend on the processing

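Among the results past the threshold, 17 kept their call under every alternative in which they were tested and 49 lost it under some. The tests within single clusters are not counted here, and Slc29a1, kept in endothelial cells, missed the threshold in each of the endothelial clusters tested. Enpp3 in parietal epithelial cells is among the 17 but was not tested with doublets left in. The calls among the 10 genes in whole kidneys, 3 as reported, were 7 with DESeq2, 5 with library size only and 6 with at most 20% mitochondrial UMIs. DESeq2 called 22% of all genes there. In the proximal tubule, with 4 calls, leaving out a mouse gave 0 to 4. In the other classes 19 calls became 11 to 17 without a mouse and 10 without doublet removal. The differences from the proximal tubule, 23 as reported, were 14 with DESeq2, 14 without doublet removal and 15 to 21 without a mouse. For the list of 34 genes, 5 calls in whole kidneys became 1 to 5 without a mouse, and 1 call in the proximal tubule became 5 with DESeq2 and 0 to 5 without a mouse. In fibroblasts, an addition made after seeing the data, 3 calls became 0 to 3 without a mouse, and 3 differences became 1 with DESeq2.

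The sign turned in parietal epithelial cells without doublet removal for Entpd5 (−0.31) and Slc29a1 (0.41) and for the differences of Entpd5 (−0.26) and Adk (−0.11). Without a mouse, Entpd2 in fibroblasts ranged from −2.43 to 1.43 and its difference from −3.33 to 0.81. The cause of these turns was not tested.

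The labels do not say whether the mouse numbers pair the mice. Same-numbered mice had correlations of −0.02, −0.41 and −0.05 between their deviations from the group means. Such deviations cancel out within a group, so these values cannot decide whether same-numbered mice shared a batch. Mouse 3 had the lowest median of UMIs per kept barcode in both groups (4845 in sham, 5912 in DOCA-salt). It also had the highest median share of mitochondrial UMIs (25.9% and 19.8%). With the number as a block, the calls were 3 in whole kidneys, 0 in the proximal tubule, 11 in the other classes, and 3 and 0 for the list of 34 genes. Depth limits the shallow classes. None of the genes chosen by symbol had enough counts for a test of their own in B cells or monocytes. The S3 segment rests on 11 to 77 cells per mouse.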

Other observations

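Neutrophils, too few to compare (3 to 18 cells per mouse), held Entpd1 at 665, 1216 and 1176 CPM in the sham mice and at 506, 1030 and 657 CPM in the DOCA-salt mice, on 51 and 82 UMIs. Slc29a1 and Enpp1 had 0 UMIs in them.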
